A study of Mus musculus with 6 samples.

Results

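Transcription factors that specify intestinal epithelium were read out in bladders of mouse embryos lacking Get1. The 7 genes were Cdx1, Cdx2, Hnf4a, Hnf4g, Onecut2, Isx and Creb3l3, out of 18193 genes with a probe set on the array. They were chosen by name, as factors of the gut, with the difference between the genotypes already known from these same arrays. Their values are therefore given as a description, and limma calls for them are printed as description only. The 7 genes are represented by 15 probe sets, and each gene was read from its brightest probe set, judged by the mean of the 6 arrays.

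Total RNA of bladder at embryonic day 18.5 was hybridised to 6 arrays, from 3 Get1 -/- mice (null arrays 1 to 3) and 3 Get1 +/- mice (heterozygous arrays 4 to 6). Get1, also called Grhl3, encodes a transcription factor of the grainyhead-like family that acts in surface epithelia. The control mice carried 1 disrupted allele, and bladders of wild-type mice were not used here. The series asked which molecular changes accompany the bladder defect of the null mice. The sources used here do not say how the allele was made. The labels describe a labelling kit that yields sense-strand DNA, whereas probe sets named in this way are usually hybridised with antisense RNA, and which target was hybridised is unsettled for every value below.

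Cdx1 and Cdx2 are caudal-type homeobox factors that set and keep the identity of intestinal epithelium, and Cdx2 is needed for the gut lining to become intestinal rather than squamous or gastric. Hnf4a and Hnf4g are closely related nuclear receptors that switch on genes of enterocytes, and Hnf4a also acts in liver, kidney and pancreas. Onecut2 is a cut homeobox factor of endoderm-derived organs, Isx an intestinal homeobox factor that represses carotenoid and lipid uptake, and Creb3l3 a membrane-anchored bZIP factor of liver and small intestine that controls lipid genes. None of the 7 is a classical factor of urothelium, the lining of the bladder, which relies on factors such as Gata3, Pparg and Trp63.

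The promoters of Hnf4a and Cdx2, the brightest member and the caudal factor with the larger difference, are shown to place the genes and the words searched in them. RefSeq promoter windows (GRCm38.p6) of 4 of the 7 genes, 6 windows together, were used, with the 250 bases before each start. Windows on a chromosome that was set aside were not used for the 7 genes. A gene without a window here may therefore still have a RefSeq promoter. The shares of all windows given below did not leave that chromosome out. Words were searched on both strands, and capitals mark every match. The words were AATAAA (the core bound by Cdx factors), CAAAGTCCA (Hnf4), AGATAA (the word of the Gata family) and AACCGGTT (grainyhead-like factors). No matches overlapped in these windows.
Hnf4a, upstream start, chr2:163506607-163506856, plus strand: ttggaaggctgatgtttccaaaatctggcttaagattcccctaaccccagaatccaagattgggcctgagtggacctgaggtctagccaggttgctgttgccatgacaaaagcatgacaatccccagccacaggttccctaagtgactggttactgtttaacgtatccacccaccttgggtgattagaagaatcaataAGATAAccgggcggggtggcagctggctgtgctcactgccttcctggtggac
Hnf4a, downstream start, chr2:163546905-163547154, plus strand: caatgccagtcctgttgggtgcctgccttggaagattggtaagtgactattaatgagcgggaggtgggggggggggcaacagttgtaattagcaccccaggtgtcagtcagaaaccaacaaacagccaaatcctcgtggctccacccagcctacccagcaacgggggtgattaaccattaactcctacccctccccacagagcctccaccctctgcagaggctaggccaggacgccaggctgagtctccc
Cdx2, chr5:147307250-147307499, minus strand: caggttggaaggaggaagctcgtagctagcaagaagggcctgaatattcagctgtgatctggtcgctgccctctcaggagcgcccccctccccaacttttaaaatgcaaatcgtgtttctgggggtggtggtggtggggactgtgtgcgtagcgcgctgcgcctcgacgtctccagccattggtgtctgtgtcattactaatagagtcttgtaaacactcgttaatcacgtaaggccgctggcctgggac

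The Gata word began at -52 from the upstream Hnf4a start and at -138 from 1 of the 2 Creb3l3 starts, and occurs in 9.99% of all 32851 windows of this length. The Cdx, Hnf4 and grainyhead-like words (in 18.1%, 0.384% and 0.116% of windows) were not among the letters of the 6 windows, and the Cdx2, Isx and downstream Hnf4a windows held none of the 4 words. These matches are descriptions of the letters only.

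The arrays were of similar brightness, with median probe set signals from 58.2 to 72.4. Grhl3, the targeted gene, had signals of 76.6, 21.5 and 119.7 without Get1 and of 143.3, 132.9 and 125.6 in the controls, so the groups did not overlap, but the difference of -0.95 on the log2 scale did not pass limma's test (adjusted p = 0.655). The sources used here do not place its probe set relative to the disrupted part, and it may therefore check nothing. Bladder smooth muscle genes (summed signal of 8 genes from 156900 to 177200 in null and from 127100 to 156100 in heterozygous arrays) and urothelial genes (10 genes, from 20420 to 23580 and from 27260 to 39880) were bright on all 6 arrays. Levels below are log2(signal + 16), on which the lowest possible level is 4, and differences are null minus heterozygous. Of the 7 factors 4 passed the filter on dim genes (a mean of at least 5.80 over all arrays), and of these only Hnf4a also had a heterozygous mean above that limit. Creb3l3 passed narrowly, with a mean of 5.80. In whole bladder RNA, fewer cells of a type and less RNA per cell cannot be told apart.

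Of the 7 genes, 5 (Cdx1, Cdx2, Hnf4a, Hnf4g and Onecut2) were higher on every null array than on every heterozygous array, and 0 were lower on every null array. Over all 12735 genes tested, 6.07% were higher without overlap and 7.36% lower. Of the 5, Cdx1 and Hnf4g did not pass the filter and are not among the genes tested. By limma, 3 of the 4 factors that passed the filter were called higher at an adjusted p under 0.05 (Cdx2, Hnf4a and Onecut2), where 0.448% of all genes were. Of these, Cdx2 and Onecut2 passed the filter through their null values. Since the genes were picked with this contrast known, these counts support nothing. The median difference of the 7 genes, among them the untested Cdx1, Hnf4g and Isx, was 1.45, and that of all genes tested was -0.03.

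**Figure D1:**
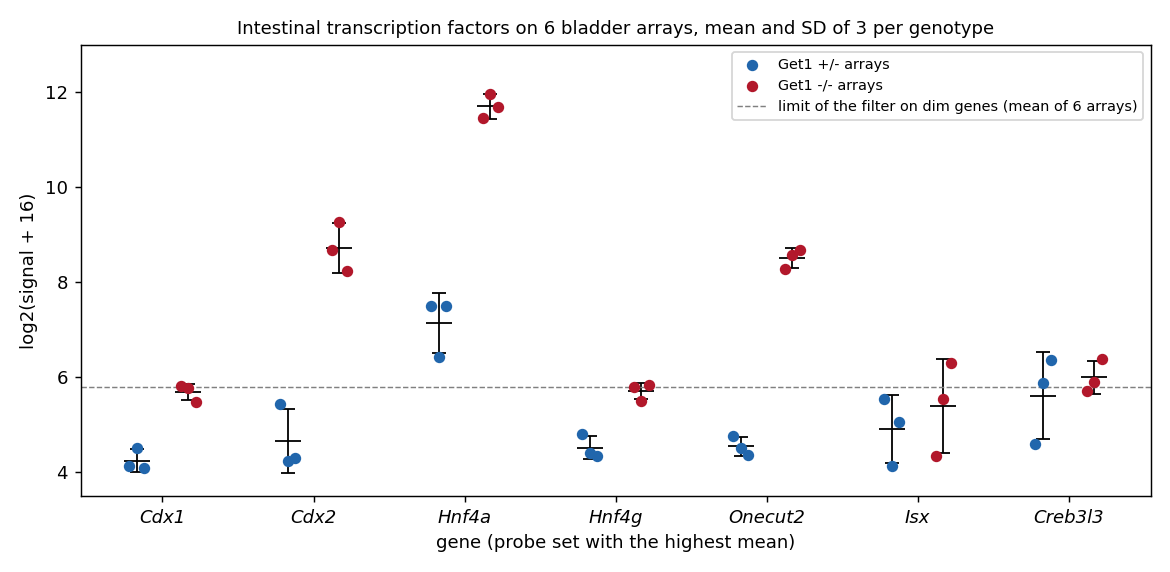
Level of each factor as log2(signal + 16) on the vertical axis, for 3 heterozygous (blue) and 3 null (red) arrays, with the mean and SD of each group in black and the limit of the dim filter (5.80) as a dashed line. Cdx2, Hnf4a and Onecut2 stand 3.97 to 4.56 higher in null bladders, Cdx1 and Hnf4g are separated but lie near the low end of the scale, and the groups of Isx and Creb3l3 overlap.

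Cdx2 (probe set 1422075_at) had signals of 393.4, 603 and 284.4 on null arrays 1 to 3 and of 27.52, 3.09 and 3.70 on heterozygous arrays 4 to 6. All 3 null arrays were far above the controls, with null 2 the highest, and heterozygous 4 was the highest control. The level was 8.73 ± 0.52 without Get1 and 4.67 ± 0.67 in the controls (SD, n = 3 each), a difference of 4.06. The heterozygous signals lay near the low end of the scale, so the size depends on the offset.

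Cdx1 (1449582_at) was dim throughout. Its signals were 39.93, 39.11 and 29.05 on the null arrays and of 1.47, 6.95 and 1.02 on the heterozygous arrays. The groups were separate, and in contrast to Onecut2 the null array numbered 3 was the lowest of the 3. The level was 5.69 ± 0.17 against 4.25 ± 0.24 (SD, n = 3 each), a difference of 1.45. The gene did not pass the filter on dim genes and was not tested.

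Hnf4a (1427001_s_at) was already measurable in heterozygous bladders. Signals were 2780, 3997 and 3295 on the null arrays and of 164.9, 69.39 and 165.7 on the heterozygous arrays. With the offset of 16, the lowest null array lay 3.94 above the highest heterozygous array on the log2 scale, the widest such gap of the 7 genes. That rank depends on the offset. Without an offset, the ratio of mean signals was 25.2 for Hnf4a, 37.3 for Cdx2 and 46.8 for Onecut2. The level was 11.70 ± 0.26 without Get1 and 7.14 ± 0.63 in the controls (SD, n = 3 each), a 23.7-fold difference. The suffix of this probe set marks that it can also match other transcripts.

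Hnf4g (1460127_at), the second Hnf4 receptor, was as dim as Cdx1. Its signals were 39.55, 29.47 and 41.04 on the null arrays and of 12.14, 5.25 and 4.45 on the heterozygous arrays. The groups were separate by 0.69 on the log2 scale, the narrowest gap among the 5 separated genes. The level was 5.71 ± 0.18 against 4.53 ± 0.25 (SD, n = 3 each), a difference of 1.19, and the gene was too dim to be tested.

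Onecut2 (1460044_at) had the least spread among the brighter factors. Signals were 293.6, 367.4 and 394.9 on the null arrays and of 11.08, 6.75 and 4.73 on the heterozygous arrays. All null arrays were high and all heterozygous arrays near the low end of the scale. The level was 8.51 ± 0.21 against 4.55 ± 0.20 (SD, n = 3 each), a difference of 3.97 whose size depends on the offset. With the dimmest 50% of genes left out, Onecut2 and Cdx2 were not tested.

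Isx and Creb3l3 did not separate the genotypes. Isx (1431922_at) had signals of 4.43, 30.63 and 63.01 on the null arrays and of 30.53, 1.59 and 17.61 on the heterozygous arrays. Null 3 was the highest array and null 1 lay below 2 of the 3 controls, so that the difference of 0.48 was smaller than the spread within the null group (SD 0.98). Creb3l3 (1424688_at) had signals of 36.50, 43.54 and 67.96 on the null arrays and of 8.09, 42.75 and 66.15 on the heterozygous arrays. Its difference of 0.39 rested on the low heterozygous 4 and was -0.12 without that array. On heterozygous 4 the hepatocyte genes Alb and Afp, which encode albumin and alpha-fetoprotein, had their highest signals (995.4 and 965.7, against at most 124.2 and 170.4 on the other 5 arrays), and their part in the Creb3l3 value was not tested.

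Among themselves the null arrays gave the 7 factors no common order. Null 1 was the lowest null array for Hnf4a, Onecut2, Isx and Creb3l3, null 2 for Hnf4g, and null 3 for Cdx1 and Cdx2. Of the 7 factors 5 were above all controls on null 1, 6 on null 2 and 7 on null 3. The title of null 1 carries a first number of 1, where the remaining 5 titles have 2, and the labels do not explain it. Without null 1 the differences were 1.39 for Cdx1, 4.09 for Cdx2, 4.69 for Hnf4a, 1.14 for Hnf4g and 4.09 for Onecut2. Isx had a difference of 1.01 without null 1 and of 0.03 without null 3. With any 1 array left out, the differences stayed between 1.37 and 1.59 for Cdx1, 3.79 and 4.45 for Cdx2, 4.20 and 4.75 for Hnf4a, 1.10 and 1.33 for Hnf4g, and 3.88 and 4.09 for Onecut2.

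The other probe sets of these genes did not separate the genotypes. Cdx2, Hnf4a, Hnf4g and Onecut2 had 8 further probe sets, and in 0 of the 8 were the null arrays all above the controls. The second Cdx2 probe set (1422074_at) had signals of 1.75, 1.65 and 2.74 on null and 3.19, 2.69 and 21.42 on heterozygous arrays, a difference of -0.40, although the annotation assigns both probe sets to the same transcript record. For Hnf4a the differences were 1.13 (1427000_at), -0.34 (1421983_s_at) and -0.60 (1450447_at), for Hnf4g 0.26 (1422182_at) and -0.53 (1450518_at), and for Onecut2 0.87 (1440005_at) and 0.64 (1444980_at). All of these were dim, the brightest signal being 93.24 for Onecut2 on null 3. Among the 54 other genes called higher in null bladders, 19 had 28 further probe sets, of which 18 separated the groups in the same direction. When all probe sets of a gene were averaged, the difference fell to 1.83 for Cdx2 and for Onecut2, to 1.19 for Hnf4a and to 0.31 for Hnf4g. Read as a description, the limma call of Hnf4a was then lost (adjusted p = 0.0885) and Cdx2 was too dim to be tested. Without probe sets that can match other transcripts, the Hnf4a difference was 1.13, with the gene then too dim to be tested, and 4 of the 7 factors had separate groups.

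**Figure D2:**
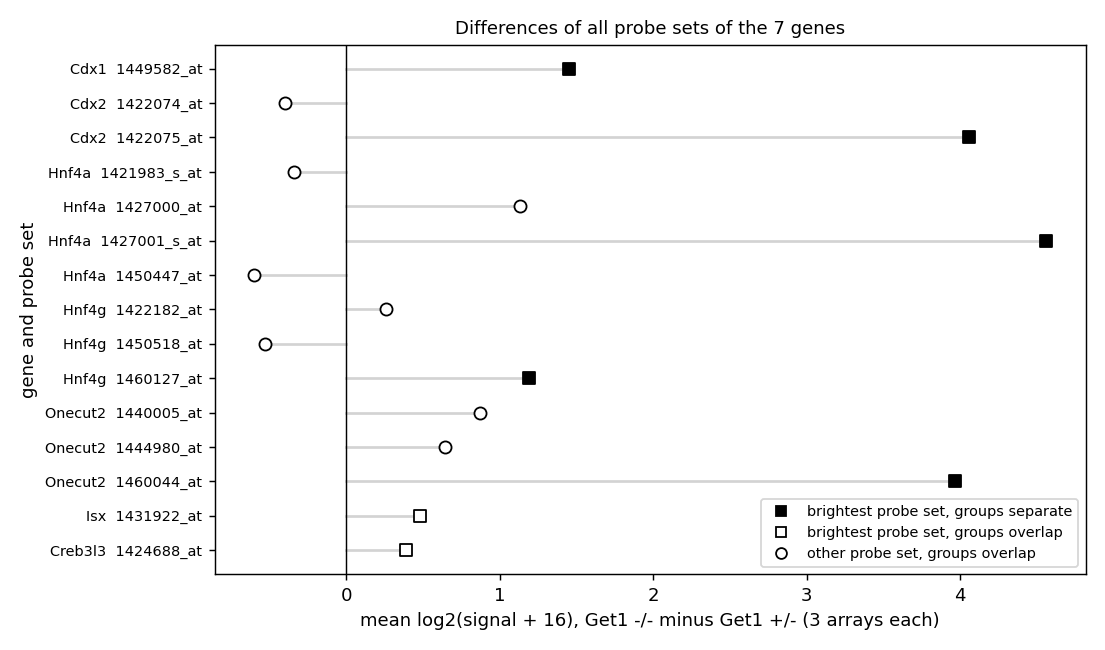
Difference of the mean log2(signal + 16), null minus heterozygous, for the 15 probe sets of the 7 genes (3 arrays per genotype). Squares are the brightest probe set of each gene and circles the others, and filled symbols mark groups that do not overlap. The 5 filled symbols are all brightest probe sets, and the 8 circles lie between -0.60 and 1.13.

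The offset added before taking logarithms set much of the size for the dim factors. With an offset of 1 the differences were 3.43 for Cdx1, 5.64 for Cdx2, 2.29 for Hnf4g and 5.43 for Onecut2, and with 64 they were 0.57, 2.67, 0.50 and 2.53. Hnf4a, whose signal was above each offset in both genotypes, varied least in proportion, from 4.73 to 4.14. The direction was the same with each offset for all 7 factors.

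**Figure D3:**
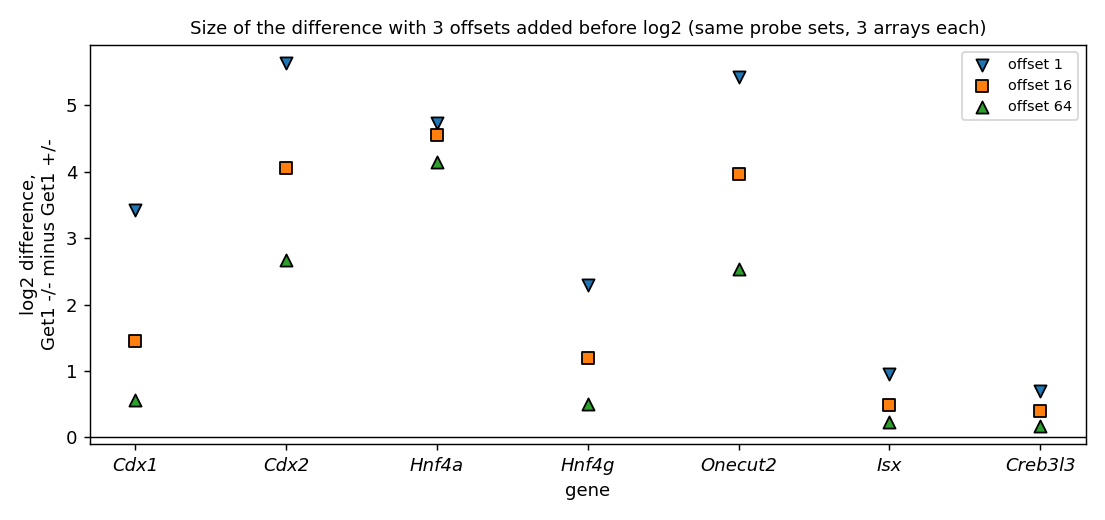
Difference in log2 level, null minus heterozygous, of each factor with offsets of 1, 16 and 64 added to the signal (same probe sets, 3 arrays per genotype). The 3 symbols lie close together for Hnf4a (4.73, 4.56 and 4.14) and far apart for Cdx1 (3.43, 1.45 and 0.57).

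Relatives of the 7 factors did not pass the test. Of 11 paralogues and related receptors, 8 were bright enough and 0 of them were called. Creb3l4, another membrane-bound bZIP gene, differed by 1.40 without overlap of the groups (adjusted p = 0.553, limma), while Creb3, Creb3l1 and Creb3l2 differed by -0.35, 0.48 and -0.33 (adjusted p = 0.844, 0.797 and 0.801). Rxra, a partner of many nuclear receptors, differed by -0.52 with separate groups (adjusted p = 0.643). The differences were -0.62 for Nr2f1, 0.15 for Nr2f2 and 0.02 for Nr2f6, orphan receptors that bind sites similar to those of Hnf4 (adjusted p = 0.734, 0.961 and 0.993). Cdx4, Onecut1 and Onecut3 were too dim to be tested, with signals of at most 43.67 on any array.

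Of the other transcription factors of gut endoderm, Foxa3 rose and 13 tested factors did not pass. Foxa3, a forkhead factor of endoderm, had signals of 175.1, 278.2 and 299.8 on the null arrays and of 2.72, 3.82 and 19.96 on the heterozygous arrays. Its level was 8.03 ± 0.39 against 4.57 ± 0.52 (SD, n = 3 each), a difference of 3.46 (SE 0.33, adjusted p = 0.00273, limma), with all 3 null arrays above all controls. With offsets of 1 and 64 its difference was 5.09 and 2.10. Its relative Foxa1, which urothelium also expresses, differed by 0.69 with separate groups (adjusted p = 0.553). Sox9, a factor of crypt progenitors, differed by 0.62 (adjusted p = 0.701). Gata4, Gata5 and Gata6, which act with Cdx2 and Hnf4a in gut, differed by -0.88, 0.04 and 0.52 (adjusted p = 0.738, 0.988 and 0.858). Prdm1, a repressor that maintains the fetal programme of gut epithelium, differed by -0.85 (adjusted p = 0.728). The median of all 17 factors with a probe set was 0.40. The heterozygous mean of Foxa3 lay below the limit of the dim filter. Foxa3 thus passed the filter through its null values, and its rise supports nothing about the list. By comparison, 0.448% of all genes tested were called higher.

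Nuclear receptors and coactivators of intestinal metabolism included 7 tested genes, and 0 passed. The bile acid receptor gene Nr1h4 differed by 0.97 (adjusted p = 0.405) and the coactivator genes Ppargc1a and Ppargc1b by 0.66 and 0.20 (adjusted p = 0.515 and 0.916), with Esrra at 0.40 (adjusted p = 0.754). For Nr1h4, Ppargc1a and Esrra all null arrays were above all controls, where 6.07% of all genes tested were higher without overlap. The median of the 12 genes with a probe set was 0.14.

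Genes known to depend on Cdx2 in the intestine held the most calls of the 17 lists, which were drawn up with earlier results of these arrays known. Of 11 genes with a probe set 8 were tested, of which 5 rose, 0 fell and 3 did not pass. By comparison, 0.448% of all genes tested were called higher. Of the 5, Guca2a, Cdh17 and Muc2 had heterozygous means below the limit of the dim filter and so passed it through their null values, and their count supports nothing about the list. The median difference of all 11 genes was 1.39. Guca2a, which encodes the peptide guanylin, rose by 5.43 (SE 0.34, adjusted p = 3.4e-04, limma), the lectin gene Lgals4 by 4.47 (SE 0.41, adjusted p = 0.00223), the microvillus gene Vil1 by 3.72 and the cadherin gene Cdh17 by 3.02 (adjusted p = 0.00203 and 0.00193). Muc2, the mucin of goblet cells, was the fifth, at 4.37 (adjusted p = 0.00852), and missed the threshold without heterozygous 5 (4.22, adjusted p = 0.0583). The lactase gene Lct differed by 1.15 with separate groups (adjusted p = 0.361), and Heph and Krt20 differed by -0.55 and -0.35 (adjusted p = 0.811 and 0.889). Car1, Gucy2c and Mep1a were too dim to be tested. Relative to the controls, the mean of the 11 genes with a probe set stood at 1.67, 2.36 and 2.37 on null arrays 1 to 3.

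**Figure D4:**
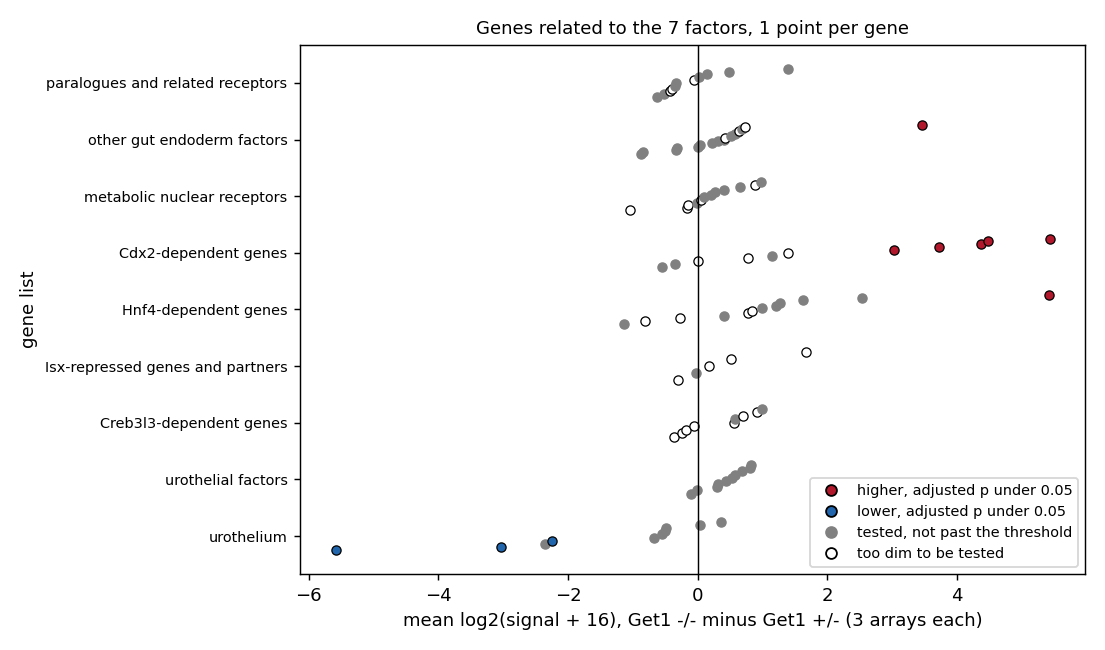
Difference of the mean log2(signal + 16), null minus heterozygous, of each gene in 9 lists (1 point per gene, 3 arrays per genotype). Red and blue mark genes past the threshold in each direction, grey those tested and not past it, and white those too dim. Red points are 5 Cdx2-dependent genes (of 11 with a probe set, 3 of which were too dim), 1 gut endoderm factor (Foxa3) and 1 Hnf4-dependent gene (Fabp1). Of all genes tested, 0.448% were called higher.

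Genes known to depend on Hnf4 showed 1 rise among 8 tested, where 0.448% of all genes tested were called higher. The median of the 12 with a probe set was 0.91. Fabp1, which carries fatty acids in enterocytes and hepatocytes, rose by 5.41 (SE 0.50, adjusted p = 0.00237, limma), from a heterozygous mean below the dim filter. Fabp1 thus passed the filter through its null values, and the count supports nothing about the list. Fabp2, its enterocyte relative, had signals of 38.28, 305.3 and 953.8 on the null arrays and of 3.15, 50.19 and 53.70 on the heterozygous arrays, and differed by 2.53 (adjusted p = 0.576). Null 1 thus lay among the controls. The apolipoprotein genes Apoa1 and Apoc3 were likewise lowest among the null arrays on null 1 (64.44 and 23.64), and differed by 1.62 and 1.20 (adjusted p = 0.791 and 0.749), while Apoa2 differed by -1.13 (adjusted p = 0.746). Heterozygous 4, the array with the highest Alb and Afp signals, also had the highest control signals of Apoa1 and Apoa2. These were 417.7 and 464.2, against at most 97.88 and 91.11 on the other controls. The part of that array in these differences was not tested. As a mean over the 12 genes with a probe set, the list stood at -0.22, 1.40 and 2.03 on null arrays 1 to 3 relative to the controls. Hnf4a itself was between 2780 and 3997 on all 3.

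The lists for Isx and Creb3l3 held few genes bright enough to test. Scarb1, a lipid and carotenoid receptor repressed by Isx, differed by -0.03 (adjusted p = 0.993), and was the only 1 of 5 tested. Bco1, the other known Isx-repressed gene, was too dim, at 39.78, 17.59 and 32.52 on null and 24.72, 2.78 and 24.31 on heterozygous arrays. Rbp2, a retinol binding protein of enterocytes, was higher on each null array (39.23, 90.16 and 57.44) than on each control (2.53, 22.20 and 3.02), but was not tested. Of the 9 genes for Creb3l3, 2 were tested and 0 passed, with Apoa4 at 0.99 and Apoc2 at 0.58 (adjusted p = 0.796 and 0.804).

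Markers of the tissues in which these factors act were read on the same arrays. In the small intestinal list 0 of 6 tested genes passed, with Lct and Fabp2 as above, Enpep at 0.67 and Apoa4 at 0.99 (adjusted p = 0.739 and 0.796). The summed signal of its 11 genes was 1048 to 2927 on null and 562 to 662.6 on heterozygous arrays. On null 3, Fabp2, Lct, Enpep and Apoa4 gave 953.8, 611.3, 502.2 and 464. The groups of Fabp2, Enpep and Apoa4 overlapped, so the sum does not show a rise across the list. Among its genes too dim to be tested, Alpi, Mep1b and Rbp2 were higher on each null array than on each control (differences of 1.56, 2.00 and 1.67), while Slc10a2 and the fructose transporter gene Slc2a5 overlapped (0.39 and 0.00). In the colon list 1 of 5 tested genes rose, where 0.448% of all genes tested were called higher. This was Lypd8, a surface protein of colon epithelium (7.61, SE 0.34, adjusted p = 9.3e-05, limma). Its heterozygous mean of 4.42 lay below the limit of the dim filter. Lypd8 thus passed the filter through its null values, and the count supports nothing about the list. Hoxb13, Slc26a3 and B3gnt7 differed by 1.35, 0.70 and -0.29 (adjusted p = 0.26, 0.603 and 0.885). Hoxb13, like Lypd8, was higher on every null array than on every control, where 6.07% of all genes tested were. Summed signal of the 10 colon genes was 5906 to 9762 on null and 3278 to 4572 on heterozygous arrays. Most of it came from Lypd8 (2680 to 5537 against 2.10 to 13.75) and Hoxd13 (2876 to 3813 against 3097 to 4315). Hoxd13 differed by -0.11 (adjusted p = 0.954, limma), so the sum does not show a rise across the list. Car1, Car4, Aqp8, Slc9a3 and Hoxa13 were too dim to be tested, and their groups overlapped. The part of such cells in the values of the 7 factors was not tested.

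In the hepatocyte list 0 of 4 tested genes passed. Cps1, a urea cycle enzyme of liver and intestine, differed by 2.93 with separate groups (adjusted p = 0.16), and Alb, Afp and Fga by -2.35, -1.15 and -0.78 (adjusted p = 0.624, 0.794 and 0.888). Summed signals overlapped, at 674.3 to 2504 on null and 261.5 to 2749 on heterozygous arrays. In the stomach list 0 of 4 passed, with Tff1 at 1.87, Tff2 at 1.29, Sox2 at -0.66 and Gkn3 at 0.05 (adjusted p = 0.316, 0.332, 0.556 and 0.995). Tff1 and Tff2 were higher, and Sox2 lower, on every null array than on every control, where 6.07% and 7.36% of all genes tested were. Among stomach genes too dim to be tested, Gkn2 was higher on each null array (a difference of 1.93), and the groups of the others overlapped. The summed signal of the stomach list was 621.8 to 649.4 on null and 346.7 to 438.9 on heterozygous arrays. It included Tff1 (104.5 to 250.3 against 5.49 to 50.26) and Tff2 (82.97 to 193.5 against 26.60 to 65.53). The sum does not show a rise across the list. In the pancreas list 0 of 2 passed (Cpa1 at 0.12, Cela1 at 0.03, adjusted p = 0.976 and 0.991), and in the kidney list 0 of 2 (Cubn at 1.77, Calb1 at 0.00, adjusted p = 0.264 and 0.999). The groups of Cubn did not overlap. Gut mesenchyme factors had 0 of 4 past the test, with Isl1 at -0.48, Foxf1 at 0.30, Hlx at -0.19 and Nkx2-3 at 0.00 (adjusted p = 0.752, 0.919, 0.958 and 0.999).

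Factors of urothelium did not pass the test on the arrays where the gut factors were high. Of 10 tested factors 0 were called, with a median of 0.48, and Ehf, Grhl2 and Gata3 differed by 0.80, 0.53 and 0.43 (adjusted p = 0.59, 0.722 and 0.734). Ehf and Foxa1 were the 2 of the 10 that were higher on every null array than on every control. In the list of urothelial surface genes and keratins 3 of 10 fell, Snx31 (-5.58), Upk2 (-3.03) and Psca (-2.25), with adjusted p of 3.4e-04, 0.00223 and 0.0445 (limma). Upk1a differed by -2.36 (adjusted p = 0.199). With Upk1a and Krt18, 5 of the 10 were lower on every null array than on every control, where 7.36% of all genes tested were. Over all genes, 0.0628% were called lower. Psca passed in 8 of 16 alternative analyses. Smooth muscle genes had 0 of 8 past the test, with Des, Cnn1, Synpo2 and Tagln at 0.80, 0.58, 0.73 and 0.24 (adjusted p = 0.281, 0.48, 0.59 and 0.872). Of the 8, however, 4 (Des, Cnn1, Synpo2 and Actg2) were higher on every null array than on every control, where 6.07% of all genes tested were. Over all 17 lists, 95 genes other than the 7 factors were tested, of which 8 rose, 3 fell and 84 did not pass. Over all genes tested, 0.448% were called higher. Of the 8, Guca2a, Cdh17, Muc2, Foxa3, Fabp1 and Lypd8 had heterozygous means below the limit of the dim filter. They passed it through their null values, so the count of rises supports nothing about the lists.

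The genes whose level across the 6 arrays was most like that of each factor were read as a description. For Hnf4a they were Mllt10, Pglyrp1 and Lgals2, for Onecut2 Ugt2b34, Met and Reg1, for Hnf4g Fut2, Tpd52 and H3c4, for Cdx1 Ugt2b36, Ffar2 and AA467197, and for Cdx2 Parpbp, Tfrc and Anln. This likeness ignores size. Reg1 differed by 7.19 between the genotypes and Met by 0.46, and both followed Onecut2. For Isx the most alike genes were Dcp2, Scoc and Ubxn2b and for Creb3l3 Sema6c, Cdcp1 and Rbm14, whose differences were between 0.04 and 0.48. The measure was Pearson's r over 6 arrays, from 0.985 to 0.998, which for the 5 separated factors mostly reflects the 2 genotype levels.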

How the data were processed

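The authors deposited 1 table of linear intensity values per probe set for 6 arrays. The submitters' processing notes name Affymetrix Expression Console 1.1 and PLIER 2.0. No background step or between-array normalization is stated in them. Of 45101 probe sets, 64 were controls and 34945 (77.5%) had exactly 1 gene symbol in the platform annotation, while 932 had several and 9160 were unnamed here. For each of 18193 genes the probe set with the highest mean was kept, and values were taken as log2(intensity + 16). The 30% of genes with the lowest mean were left out, leaving 12735. The genotypes were tested against each other in limma 3.58.1 under R 4.3.3 (functions lmFit and eBayes, two-sided, Benjamini-Hochberg over all genes tested, threshold 0.05), and the code was tested on simulated data. SE is the moderated standard error. The series text gives 3 mice per genotype, and the number of arrays limits the precision. With 3 arrays per genotype the smallest p of an exact permutation test is 0.1, so none is printed.

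The 7 factors and the 17 lists (188 entries, 175 genes, of which 162 had a probe set) were chosen with earlier results of these data known. Genes named were the 7 factors with every probe set, all tested paralogues, up to 4 genes per list with the smallest p, Grhl3 and the 3 most alike genes per factor, and other genes were named after their values were seen. Groups came from the sample titles. Alternatives were other offsets, filters, normalizations, probe set rules and variance models, array weights, and each array left out. Promoter sequences came from RefSeq (GRCm38.p6). The array table names no build, so no probe positions are printed.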

Additional observations from a re-analysis of the deposited data

How the results depend on the processing

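No paired analysis was possible because the titles name no litter or pair. Any pairing of null with heterozygous mice could therefore not be used. The count of genes called higher, 57, was 36 with an offset of 1, and otherwise between 38 and 77. The count called lower, 8, was 5 with an offset of 1, 5 with the dimmest 50% of genes left out, 5 to 9 with 1 array left out, 11 with arrays centred on the median and 12 with array weights. The median difference of the 7 factors, 1.45, was 3.43 with an offset of 1 and 0.57 with 64, and 1.37 to 1.59 with 1 array left out. The count of factors with separate groups ranged from 4 to 6. Of the genes in the related lists 8 rose in the main analysis, 4 with the dimmest 50% left out, where fewer genes are tested, and 7 to 10 with 1 array left out. Foxa3 passed in all 15 alternatives that tested it, and Muc2 in 13 of 15, the exceptions being an offset of 1 (adjusted p = 0.0687) and leaving out heterozygous 5. Apart from the construction noted for the filter, the cause was not tested. Signals near the low end of the scale limit Cdx1, Hnf4g, Isx and Creb3l3, and on the heterozygous arrays also Cdx2 and Onecut2.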
